A study of Mus musculus with 8 samples.

Results

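The core clock genes Clock, Arntl (also called Bmal1), Npas2, Per1, Per2, Per3, Cry1, Cry2, Nr1d1 and Nr1d2 were followed in mouse kidney. They were taken by symbol from a table of 21759 genes, in which all 10 were found. Kidney RNA came from 8 male mice aged 8 months, all knock-in animals of a MUC1 kidney disease model. In that inherited disease a frameshift in MUC1 gives rise to an abnormal protein that collects in tubule cells. Of these, 4 mice received daily BRD4780, at 50 mg/kg, over 7 days. BRD4780 is a small molecule described as acting on TMED9, a cargo receptor of the early secretory pathway, and the titles of its samples name it AGN50. The other 4 mice were given saline vehicle on the same schedule. Every animal carried the knock-in allele, so the comparison is within the disease model, and mice without the allele were not analysed here. Neither the strain background nor the hour at which kidneys were removed is stated in the labels. The hour bears on every value of a clock gene, and whether it differed between the groups was not tested.

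The molecular clock is a transcription loop present in most mammalian cells. CLOCK or its relative NPAS2 pairs with BMAL1, the product of Arntl, and the pair binds E-box sequences to activate the Per and Cry genes and the genes of the nuclear receptors REV-ERBalpha (Nr1d1) and REV-ERBbeta (Nr1d2). PER and CRY proteins return to the nucleus and inhibit the activating pair, while the REV-ERBs repress Arntl through ROR elements, called ROREs. In kidney the clock is known for daily rhythms of salt and water transport, and Per1 is also known as a direct target of glucocorticoid and cAMP signals.

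The control sequences named above were looked for in RefSeq promoter windows on GRCm38.p6, running from 250 bases before to 50 bases after a start site, on both strands. Windows were found for 9 of the 10 members, 13 windows in all. The E-box CACGTG was present in Per1 and Cry1, and in 8.09% of all 27025 genes with a window. The related letters CACGTT were present in Cry1, Cry2 and Nr1d1, and in 5.44% of all genes. The D-box TTATGTAA or TTACGTAA, bound by the output factors DBP, TEF and HLF, was present in Per3 alone among the matched members and in 1.23% of all genes. The RORE letters ANTAGGTCA or ANTGGGTCA were present in Arntl alone among them and in 1.63% of all genes. The cAMP response element TGACGTCA was found in 0 of the matched members, against 2.03% of all genes. The glucocorticoid response element core ACANNNTGT was likewise found in 0, against 7.9% of all genes. These are matches of letters in short windows, and a window without a match says only that the letters are not in it.

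From these windows, bases before a RefSeq start site and outside annotated exons are shown. They are given for Per1 and Nr1d1, the members that changed, and for Per3, which holds the D-boxes. Cry1 is shown too, since its fold change was the next in size after that of Per1. The stretch of Per1 lies inside the annotated gene, which begins at chr11:69095217, and so is not the flank before the whole gene. A stretch of Arntl around its RORE, in the exon that starts the gene, is shown for the feedback arm from the REV-ERBs. All are printed 5′ to 3′ on the strand of the gene, with the matches in capitals.
Per1, chr11:69098699-69098947, plus strand, E-box at position -166 from the start site: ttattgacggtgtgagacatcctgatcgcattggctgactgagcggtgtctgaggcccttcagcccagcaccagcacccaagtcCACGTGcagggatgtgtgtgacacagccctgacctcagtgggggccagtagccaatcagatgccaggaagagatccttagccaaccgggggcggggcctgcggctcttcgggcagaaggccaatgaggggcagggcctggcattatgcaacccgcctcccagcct
Cry1, chr10:85185065-85185304, minus strand, CACGTT read on the other strand at -79 and E-box at -60: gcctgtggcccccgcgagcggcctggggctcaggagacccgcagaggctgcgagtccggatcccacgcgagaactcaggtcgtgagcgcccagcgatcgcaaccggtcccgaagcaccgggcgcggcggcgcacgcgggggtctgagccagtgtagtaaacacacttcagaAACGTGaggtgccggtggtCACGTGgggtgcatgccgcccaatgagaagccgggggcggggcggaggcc
Nr1d1, chr11:98775378-98775627, minus strand, CACGTT read on the other strand at -28: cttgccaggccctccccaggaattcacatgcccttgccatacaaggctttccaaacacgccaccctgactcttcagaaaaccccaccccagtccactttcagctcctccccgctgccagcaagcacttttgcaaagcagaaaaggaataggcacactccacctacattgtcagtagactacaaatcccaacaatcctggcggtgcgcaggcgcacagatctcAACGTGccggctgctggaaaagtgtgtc
Per3, chr4:151044666-151044915, minus strand, D-boxes at -205 and -158: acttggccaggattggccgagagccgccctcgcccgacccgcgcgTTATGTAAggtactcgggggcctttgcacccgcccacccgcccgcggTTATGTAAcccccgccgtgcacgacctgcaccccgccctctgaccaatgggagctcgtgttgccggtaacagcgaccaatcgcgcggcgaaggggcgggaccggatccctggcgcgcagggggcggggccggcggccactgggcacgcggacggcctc
Arntl, chr7:113207529-113207558, plus strand, RORE at position 29 from the start site: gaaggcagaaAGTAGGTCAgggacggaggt
Per1 has a second RefSeq start site further downstream, and that window held none of the letters searched. The stretch shown for Per3 held a pair of identical D-boxes. The stretch shown for Cry1 carried both kinds of E-box close together.

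Single libraries stood apart across members. BRD4780 replicate 3 was the BRD4780 library nearest to the vehicle mean for 8 of the 10 members. Vehicle replicate 3 was the vehicle library nearest to the BRD4780 mean for 5 of them, namely Per1, Per2, Per3, Cry1 and Nr1d1. It was also the highest vehicle library for 6 members. Calls that change without either are given beside the gene.

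With BRD4780, Per1 rose and Nr1d1 fell, and the other 8 members did not pass the test. All 10 members were counted well enough to be tested. In edgeR's quasi-likelihood test with Benjamini-Hochberg adjustment over 13474 genes at 0.05, 1 member was called higher, where 2.3% of all tested genes were. Likewise 1 member was called lower, where 0.623% of all tested genes were. Levels are given as CPM, library counts scaled to a common total. The BRD4780 and vehicle libraries did not overlap in CPM for 2 members, Per1 and Nr1d1 again, against 12.6% of all tested genes. The median log2 fold change of the members was 0.22, against 0.01 over all tested genes. The median size of the log2 fold change, regardless of sign, was 0.48 for the members and 0.18 for all tested genes. Unadjusted p was under 0.05 for 7 of the 10, against 24.6% of all tested genes. These counts move with the libraries used. Without BRD4780 replicate 3, 4 members were called higher (12.1% of all tested genes were) and 2 lower (11.3% of all). Over the other leave-outs the number called ran from 0 to 2 in the higher direction and from 0 to 1 in the lower one.

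**Figure D1:**
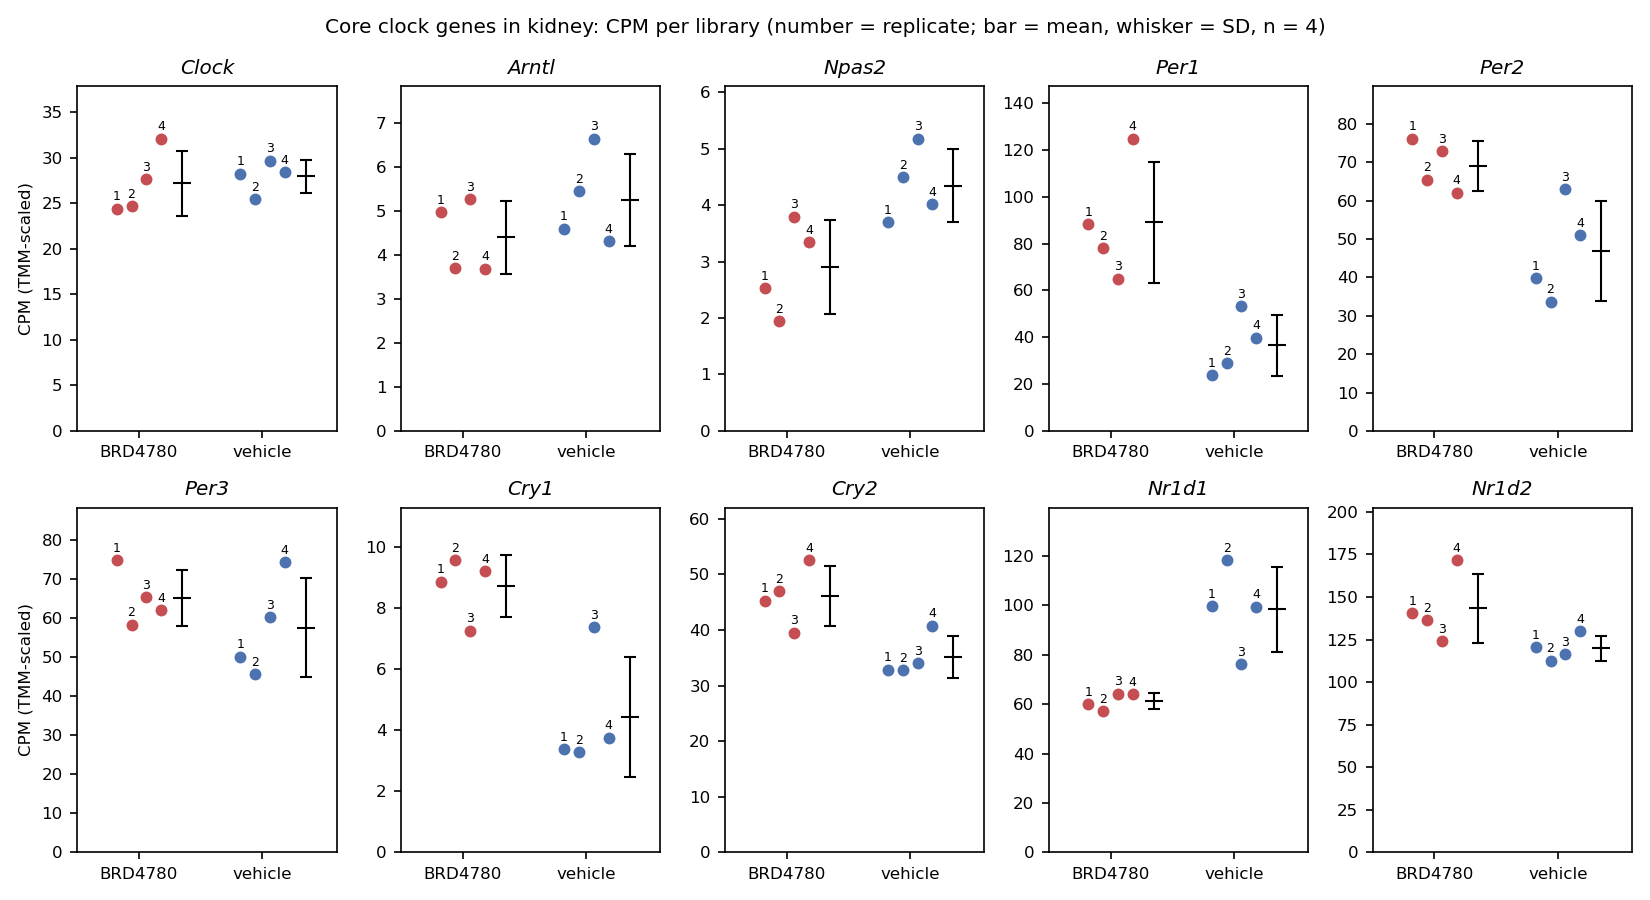
Level in CPM (y axis, from 0) of each core clock gene in the 4 BRD4780 libraries (red, left) and the 4 vehicle libraries (blue, right), with the replicate number above each point. The horizontal bar is the mean and the whisker the SD. Only Per1 and Nr1d1 have groups that do not overlap, with Per1 at 65.0 CPM or more in BRD4780 kidneys and at 53.4 CPM or less in vehicle kidneys.

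Per1 encodes a PER protein of the inhibitory complex and is the PER gene best known for fast induction by outside signals. It lies at chr11:69095217-69109960 (plus strand). Its level was 88.4, 77.9, 65.0 and 125 CPM in BRD4780 replicates 1 to 4, against 23.8, 28.9, 53.4 and 39.8 CPM in vehicle replicates 1 to 4. Every BRD4780 library lay above every vehicle library, and the nearest pair was replicate 3 of each group. The means were 89.0 ± 25.7 CPM with BRD4780 and 36.5 ± 13.1 CPM with vehicle (SD, n = 4 each), a log2 fold change of 1.28 ± 0.26 (SE) or 2.43-fold, with an adjusted p of 0.0345 in edgeR's test. The counts behind these values ran from 746 to 2322 in BRD4780 libraries and from 662 to 923 in vehicle libraries. The call held without BRD4780 replicate 3 (log2 fold change 1.40, adjusted p 0.00383) and without vehicle replicate 3 (1.51, adjusted p 0.0296). It was lost without any other library, namely BRD4780 replicates 1, 2 and 4 and vehicle replicates 1, 2 and 4, where the log2 fold change ran from 1.09 to 1.34 and the adjusted p from 0.0544 to 0.112. It was also lost, at a log2 fold change of 1.29 and an adjusted p of 0.101, in a fit that blocked on the number in the sample titles, which mice of both arms share in 2 cases and whose meaning the labels do not state.

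Per2, the second PER gene and a main part of the repressor complex, lies at chr1:91415982-91459324 (minus strand). It had 76.2, 65.5, 72.9 and 62.1 CPM with BRD4780, against 39.9, 33.7, 63.0 and 51.1 CPM with vehicle. The groups met at a single point, since vehicle replicate 3 stood just above BRD4780 replicate 4 while the other vehicle libraries lay below all BRD4780 libraries. The log2 fold change was 0.57 ± 0.17 with an adjusted p of 0.0889 by edgeR. Per3, whose product is a PER protein less needed for the core rhythm, lies at chr4:151003652-151044665 (minus strand). It had 74.8, 58.3, 65.2 and 61.9 CPM with BRD4780, against 50.1, 45.6, 60.2 and 74.2 CPM with vehicle. Here the groups overlapped widely, and vehicle replicate 4 stood level with the highest BRD4780 library. Its log2 fold change was 0.18 ± 0.15 with an adjusted p of 0.461 by edgeR. The PER genes thus had 3 different sizes of difference, from 2.43-fold in Per1 through 1.48-fold in Per2 to 1.13-fold in Per3. Differences between members were not tested.

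Cry1 encodes the strongest repressor of the CLOCK and BMAL1 pair and lies at chr10:85131700-85185064 (minus strand). It had 8.86, 9.56, 7.25 and 9.20 CPM with BRD4780, against 3.37, 3.28, 7.37 and 3.75 CPM with vehicle. In 3 vehicle libraries it was lower than in any BRD4780 library, while vehicle replicate 3 stood just above BRD4780 replicate 3. The log2 fold change was 0.99 ± 0.26 or 1.98-fold, and with an adjusted p of 0.0662 it did not pass edgeR's test. Cry1 passed when either of those libraries was left out, with an adjusted p of 0.0151 and a log2 fold change of 1.32 without vehicle replicate 3, and an adjusted p of 0.0172 and a log2 fold change of 1.08 without BRD4780 replicate 3. Its counts were from 55 to 285 in BRD4780 libraries and from 87 to 121 in vehicle libraries, so counting error is larger here than for the PER genes.

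Cry2, the other cryptochrome gene, lies at chr2:92403646-92434043 (minus strand). It had 45.3, 47.0, 39.5 and 52.5 CPM with BRD4780, against 32.9, 32.8, 34.0 and 40.7 CPM with vehicle. Only vehicle replicate 4 reached into the range of the BRD4780 libraries, where BRD4780 replicate 3 was the lowest. The log2 fold change was 0.39 ± 0.11 with an adjusted p of 0.0743 by edgeR, and 0.0097 without BRD4780 replicate 3. All 5 PER and CRY genes had a positive log2 fold change, with a median of 0.57 against 0.01 over all tested genes. By edgeR 1 of the 5, Per1, was called higher, where 2.3% of all tested genes were. Taken singly, 1 of the 5, again Per1, had groups that did not overlap, where 12.6% of all tested genes did. Their summed level was from 249.9 to 311 CPM in BRD4780 libraries and from 144 to 218 CPM in vehicle libraries, ranges that did not overlap.

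Nr1d1 encodes REV-ERBalpha, the repressor of Arntl, and lies at chr11:98767932-98775333 (minus strand). Its level was 59.9, 57.3, 64.3 and 63.9 CPM in BRD4780 replicates 1 to 4, against 99.6, 118, 76.2 and 99.5 CPM in vehicle replicates 1 to 4. All BRD4780 libraries lay below all vehicle libraries and close together, and vehicle replicate 3 was the lowest of its group. The means were 61.3 ± 3.35 CPM with BRD4780 and 98.4 ± 17.2 CPM with vehicle (SD, n = 4 each), a log2 fold change of -0.68 ± 0.12 or 0.622-fold, with an adjusted p of 0.0217 by edgeR. The call held without BRD4780 replicate 3, vehicle replicate 3 or vehicle replicate 4. It was lost without BRD4780 replicate 1, 2 or 4 or vehicle replicate 1 or 2, where the log2 fold change ran from -0.70 to -0.58 and the adjusted p from 0.0618 to 0.0776. With the title number as a block it was -0.68 with an adjusted p of 0.0684.

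Nr1d1 shares 263 bases, 8.55% of its exon length, with Thra, the gene of a thyroid hormone receptor on the opposite strand. Thra had 16.2, 18.7, 22.8 and 20.1 CPM with BRD4780, against 34.1, 37.0, 30.8 and 31.2 CPM with vehicle. It fell as well, with a log2 fold change of -0.78 ± 0.11 and an adjusted p of 0.0121 by edgeR. The library kit keeps strand, but whether the counting used it is not stated in the labels. Without strand, reads from the shared bases could be counted for either gene, and their part in the result was not tested. Among the other members, Cry2 shares 295 bases (4.67%) with D930015M05Rik, which was at 0.355 ± 0.214 CPM with BRD4780 and 0.382 ± 0.134 CPM with vehicle (SD, n = 4 each). Arntl shares 33 bases with Gm45355.

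Nr1d2 encodes REV-ERBbeta, the partner repressor, and lies at chr14:18204054-18239127 (minus strand). It had 141, 136, 124 and 172 CPM with BRD4780, against 121, 113, 116 and 129.9 CPM with vehicle. The groups overlapped between BRD4780 replicate 3 and vehicle replicate 4. Its log2 fold change was 0.25 ± 0.10 with an adjusted p of 0.163 by edgeR, and 0.0338 without BRD4780 replicate 3. The ratio of Nr1d1 to Nr1d2 within each library, which does not depend on how libraries are scaled, was chosen after the values were seen. On the log2 scale it was -1.23, -1.25, -0.95 and -1.43 with BRD4780, against -0.28, 0.07, -0.61 and -0.38 with vehicle. The ranges were apart, and with BRD4780 Nr1d1 had 0.431 counts for each count of Nr1d2, against 0.812 with vehicle (geometric means).

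Of the 3 genes of the activating arm 0 passed edgeR's test, which called 2.3% of all tested genes higher and 0.623% lower. Unadjusted p was under 0.05 for Npas2 alone, against 24.6% of all tested genes. DESeq2 called 0 of the 3 (6.42% of all higher and 3.69% lower). With limma-voom 1 was called, Npas2, lower (11.1% of all). Clock lies at chr5:76209868-76304792 (minus strand) and had 24.4, 24.7, 27.6 and 32.1 CPM with BRD4780, against 28.3, 25.5, 29.7 and 28.5 CPM with vehicle. All vehicle values lay within the range of the BRD4780 values, and the log2 fold change was -0.05 ± 0.10 (adjusted p 0.789 by edgeR). Scaled by library totals alone the sign turned, to 0.0163. Arntl, at chr7:113207465-113314126 (plus strand), had 4.97, 3.69, 5.26 and 3.68 CPM with BRD4780, against 4.59, 5.45, 6.64 and 4.31 CPM with vehicle. The groups overlapped, with a log2 fold change of -0.23 ± 0.20 (adjusted p 0.486 by edgeR). Npas2, at chr1:39193731-39363236 (plus strand), had 2.52, 1.95, 3.79 and 3.35 CPM with BRD4780, against 3.70, 4.49, 5.18 and 4.01 CPM with vehicle. Only BRD4780 replicate 3 reached into the vehicle range. Its log2 fold change of -0.60 ± 0.23 had an adjusted p of 0.156 by edgeR, and without BRD4780 replicate 3 it was -0.81 with an adjusted p of 0.0307. In BRD4780 replicate 4, the shallowest library, Npas2 rested on 20 counts and Arntl on 22.

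**Figure D2:**
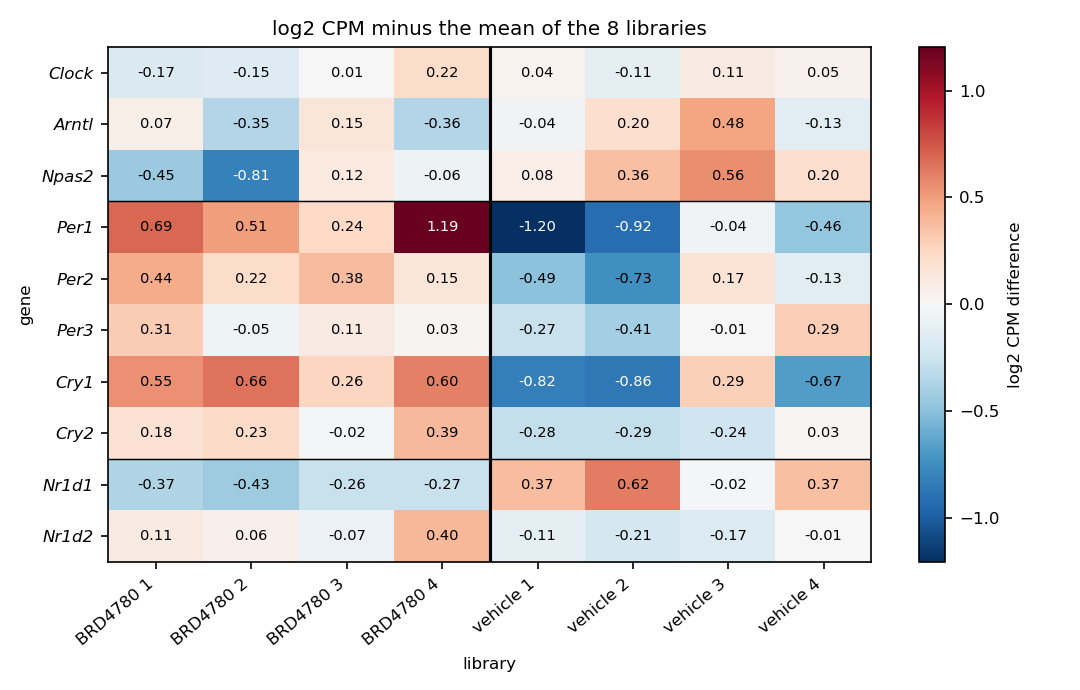
Each cell gives the log2 CPM of a gene in 1 library minus that gene's mean over the 8 libraries (red above, blue below), with BRD4780 libraries left of the heavy line and vehicle libraries right of it. Thin lines part the activating arm, the PER and CRY genes and the REV-ERB genes. Vehicle replicate 3 departs from the other vehicle libraries in Cry1, at 7.37 CPM where the others had from 3.28 to 3.75 CPM.

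Spread within a group was uneven over the members. Among vehicle libraries the highest value was 2.25 times the lowest in both Per1 and Cry1, and 1.15 times in Nr1d2. Among BRD4780 libraries the same quotient ran from 1.12 in Nr1d1 to 1.95 in Npas2, with Per1 at 1.92. In limma-voom with sample quality weights, where a weight of 1 is average, BRD4780 replicate 3 was given a weight of 0.28, the lowest of the 8. That fit called 5 members higher (Per1, Per2, Cry1, Cry2 and Nr1d2; 12.3% of all tested genes) and 2 lower (Nr1d1 and Npas2; 11.1% of all). DESeq2 called 4 members higher (Per1, Per2, Cry1 and Cry2; 6.42% of all tested genes) and Nr1d1 lower (3.69% of all).

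Ratios to Arntl within each library set the targets of the loop against one of its activators. Per1 to Arntl, on the log2 scale, was 4.15, 4.40, 3.63 and 5.08 with BRD4780, against 2.37, 2.41, 3.01 and 3.21 with vehicle. Per2 to Arntl was 3.94, 4.15, 3.79 and 4.08 with BRD4780, against 3.12, 2.63, 3.25 and 3.57 with vehicle. For both ratios the groups were apart. Nr1d1 to Arntl was 3.59, 3.96, 3.61 and 4.12 with BRD4780, against 4.44, 4.44, 3.52 and 4.53 with vehicle. There the groups overlapped through vehicle replicate 3 alone, and the means were 3.82 with BRD4780 and 4.23 with vehicle. Per3 to Arntl overlapped, with means of 3.90 with BRD4780 and 3.45 with vehicle. So did the ratio of Dbp, an output gene driven directly by the activating pair, to Arntl, with means of 4.43 with BRD4780 and 4.58 with vehicle. Per1 and Nr1d1 are both E-box targets, and their ratio was chosen after the values were seen. Its groups had to be apart, since every BRD4780 library was above every vehicle library in Per1 and below every one in Nr1d1. The ratio was 0.56, 0.44, 0.02 and 0.97 on the log2 scale with BRD4780, against -2.07, -2.03, -0.51 and -1.32 with vehicle. In each BRD4780 library Per1 counts thus exceeded Nr1d1 counts, and in each vehicle library they were below them. These counts are not divided by exon length, which is 5631 bases in Per1 and 3077 in Nr1d1. Per kilobase of exon the BRD4780 mean was higher in Nr1d1 (19.9 CPM) than in Per1 (15.8 CPM), with ranges that overlapped.

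**Figure D3:**
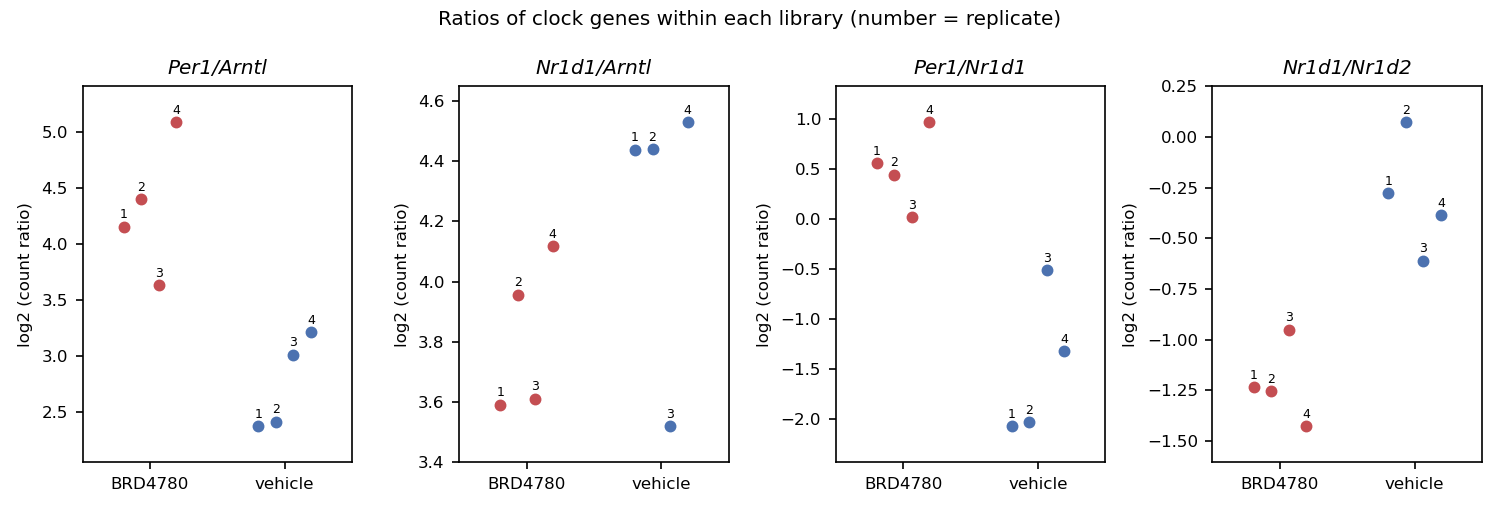
Log2 ratio of the counts of a pair of clock genes (y axis) in each BRD4780 library (red, left) and each vehicle library (blue, right), with replicate numbers. The groups overlap for Nr1d1 to Arntl, through vehicle replicate 3 at 3.52, and are apart for the other 3 ratios, such as Per1 to Nr1d1 at 0.02 or more with BRD4780 and at -0.51 or less with vehicle. For Per1 to Nr1d1 this follows from the levels of the genes, which are each apart and in opposite directions.

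Levels were compared between members per kilobase of exon, with the exon lengths of the GENCODE M21 annotation. In BRD4780 kidneys Nr1d2 came first at 26.5 ± 3.73 CPM per kilobase, followed by Nr1d1 at 19.9 ± 1.09, Per1 at 15.8 ± 4.57 and Per2 at 11.8 ± 1.11 (SD, n = 4 each). Next were Cry2 at 7.29, Per3 at 6.77, Cry1 at 2.61 and Clock at 1.98 CPM per kilobase, and last Npas2 at 0.606 and Arntl at 0.585. In vehicle kidneys Nr1d1 came first at 32.0 ± 5.60 CPM per kilobase, before Nr1d2 at 22.2 ± 1.38, Per2 at 8.01 ± 2.21 and Per1 at 6.48 ± 2.33 (SD, n = 4 each). Then came Per3 at 5.99, Cry2 at 5.55, Clock at 2.04 and Cry1 at 1.33 CPM per kilobase, and again Npas2 at 0.907 and Arntl at 0.698. The order of the REV-ERB genes was opposite in the 2 groups, and in each the 4 values of the first gene lay above those of the next. Further steps without overlap were Per2 over Cry2, Per3 over Cry1 and Clock over Npas2 in BRD4780 kidneys, and Nr1d2 over Per2 and Cry2 over Clock in vehicle kidneys. All other neighbours in either order overlapped, among them Per1 and Per2 in both groups.

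**Figure D4:**
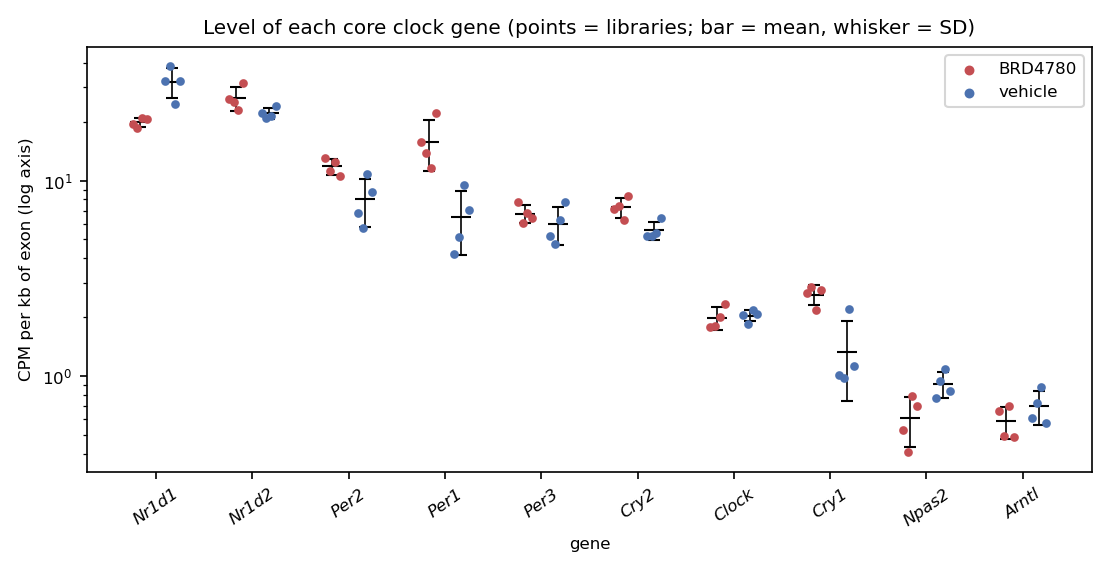
Level of each core clock gene in CPM per kilobase of exon (y axis, log scale), with BRD4780 libraries in red left of vehicle libraries in blue, ordered by the vehicle mean. Bars are means and whiskers SD over 4 libraries. The REV-ERB genes stand highest, at means from 19.9 to 32.0, and Npas2 and Arntl lowest, at means from 0.585 to 0.907.

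Beyond the core members, of 40 other clock genes tested, comprising transcription factors, protein-modifying enzymes and cofactors, 1 was called higher and 0 lower by edgeR, with a median log2 fold change of -0.03. Unadjusted p was under 0.05 for 9 of the 40, near the 24.6% of all tested genes. DESeq2 called 2 higher and 0 lower, and limma-voom 7 higher and 2 lower. Of all tested genes edgeR called 2.3% higher and 0.623% lower, DESeq2 6.42% and 3.69%, and limma-voom 12.3% and 11.1%. The called gene was Usp2, which encodes a deubiquitinase that acts on clock proteins and whose RNA cycles in many mouse tissues. Usp2 had 265, 237, 207 and 321 CPM with BRD4780, against 153, 162, 149.8 and 167 CPM with vehicle. The groups were apart, and the log2 fold change was 0.70 ± 0.12 (adjusted p 0.0217 by edgeR). That call was lost without BRD4780 replicate 1 or 2 or vehicle replicate 1, 2 or 3 (adjusted p from 0.0531 to 0.0781), and with the title number as a block (0.076).

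Among the 10 further clock transcription factors tested 0 passed edgeR's test, with a median log2 fold change of -0.16. Unadjusted p was under 0.05 for 4, against 24.6% of all tested genes. DESeq2 called 1 of them higher (6.42% of all tested genes) and limma-voom 3 (12.3% of all). The smallest p belonged to Bhlhe41, a repressor at E-boxes (log2 fold change 0.50 ± 0.16, adjusted p 0.0981), and without BRD4780 replicate 3 it passed (0.57, adjusted p 0.0276). Dbp had 85.5, 85.8, 120.1 and 88.0 CPM with BRD4780, against 139, 138, 87.6 and 141 CPM with vehicle. BRD4780 replicate 3 and vehicle replicate 3 each lay among the values of the other group, and the adjusted p was 0.163 at a log2 fold change of -0.41 ± 0.16. Of 17 kinases, phosphatases, ligases and deubiquitinases tested, Usp2 was the gene called, and the next smallest p belonged to Csnk2b, a casein kinase subunit (log2 fold change -0.18 ± 0.07, adjusted p 0.164). Of 13 cofactors tested edgeR called 0 and DESeq2 0, limma-voom called 1 higher and 1 had an unadjusted p under 0.05, and the smallest p-values belonged to Sirt1, a deacetylase (0.51 ± 0.17, adjusted p 0.108), and Mta2 (-0.08 ± 0.07, adjusted p 0.487). Without BRD4780 replicate 3 Sirt1 passed edgeR's test (0.66, adjusted p 0.00622).

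**Figure D5:**
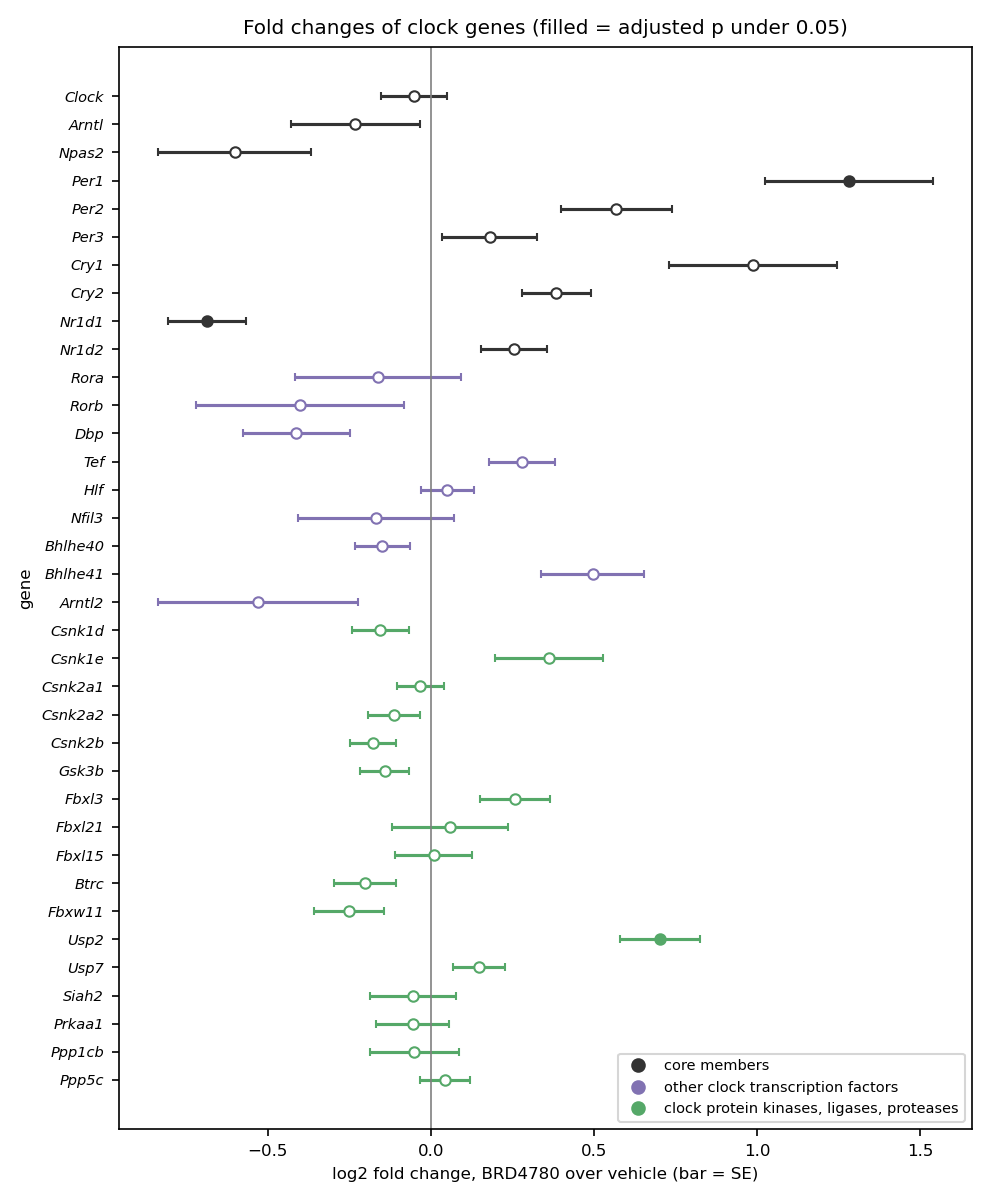
Log2 fold change, BRD4780 over vehicle (x axis), of the core members (black), most of the other clock transcription factors (purple) and clock protein-modifying enzymes (green). Whiskers are the SE from edgeR's test and filled points have an adjusted p under 0.05. The filled points are Per1 at 1.28, Usp2 at 0.70 and Nr1d1 at -0.68.

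Of 12 clock-controlled genes tested 0 passed edgeR's test, with a median log2 fold change of 0.03. Unadjusted p was under 0.05 for 5, against 24.6% of all tested genes. DESeq2 called 3 higher (6.42% of all), and limma-voom 4 higher (12.3% of all) and 1 lower (11.1% of all). By edgeR 2.3% of all tested genes were called higher and 0.623% lower. The smallest p-values there were those of Wee1, a cell cycle kinase gene (log2 fold change 0.32 ± 0.09, adjusted p 0.0735), and Nampt, an enzyme of NAD synthesis (0.32 ± 0.09, adjusted p 0.0829). Both passed without BRD4780 replicate 3 (0.34 with an adjusted p of 0.0252 in Wee1, 0.35 with 0.0238 in Nampt). Of 4 genes that cycle in nearly all mouse tissues, Usp2 and Tsc22d3, a gene also induced by glucocorticoids, were called higher by edgeR. Unadjusted p was under 0.05 for 3 of the 4, and DESeq2 and limma-voom each called 2 higher. Of 16 kidney transport genes tied to the clock, edgeR called Tsc22d3 higher and the potassium channel gene Kcnj1 lower (-0.78 ± 0.11, adjusted p 0.0121), with a list median of 0.14. Unadjusted p was under 0.05 for 7 of the 16, against 24.6% of all tested genes. DESeq2 called 3 higher and 1 lower (6.42% and 3.69% of all), and limma-voom 5 and 2 (12.3% and 11.1% of all). Kcnj1 is also one of the thick ascending limb markers given further on, and all 6 of those had a negative log2 fold change. The Kcnj1 call was lost without BRD4780 replicate 1 (adjusted p 0.0511) or vehicle replicate 2 (0.0569).

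Per1 also responds to signals from outside the loop, and RNA levels of other genes known to respond to them are given here. The signals themselves were not measured, and their part in the Per1 difference was not tested. Of 13 glucocorticoid-induced genes tested, a list that holds Per1 itself, edgeR called 4 higher and 0 lower, against 2.3% and 0.623% of all tested genes, with a median log2 fold change of 1.00. This list and that of immediate early genes below were chosen with earlier results of these data known, so their counts are a description only. DESeq2 called 9 higher, where 6.42% of all tested genes were, and limma-voom 10, where 12.3% were. An unadjusted p under 0.05 was found for 11, against 24.6% of all tested genes. The log2 fold change was positive for 11 of the 13. It was negative for 2, Klf9 (-0.18 ± 0.22, adjusted p 0.643 by edgeR) and Lcn2 (-0.29 ± 0.47, adjusted p 0.741). Beside Per1 the genes called by edgeR were Fkbp5 (2.45-fold, adjusted p 0.00197), Tsc22d3 (log2 fold change 1.11 ± 0.18, adjusted p 0.0175) and Sult1a1 (log2 fold change 1.16 ± 0.20, adjusted p 0.02). Fkbp5 passed edgeR's test in each of the 8 leave-outs and with the title number as a block, and the other 3 did not pass with that block. The Tsc22d3 call was lost without BRD4780 replicate 1, 2 or 4 or vehicle replicate 2 (adjusted p up to 0.0755). That of Sult1a1 was lost without BRD4780 replicate 1, 2 or 4 or vehicle replicate 1 or 2 (up to 0.0689). Of 19 immediate early genes, which respond to cAMP and serum as Per1 does, 16 were tested and edgeR called 1 higher, with a median of 0.34. DESeq2 called 3 higher (6.42% of all tested genes) and limma-voom 6 (12.3% of all). An unadjusted p under 0.05 was found for 5, against 24.6% of all tested genes. The gene called by edgeR was Klf4 (0.97 ± 0.19, adjusted p 0.0306). That call held without BRD4780 replicate 3. It was lost without each of the other 7 (adjusted p up to 0.0976) and with the title number as a block (0.094). The next was Atf3 (0.89 ± 0.24, adjusted p 0.0738), which passed without BRD4780 replicate 3 (1.01, adjusted p 0.0143).

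The genes whose pattern over the 8 libraries was most like that of Per1 and of Cry1, the 2 members with the largest spread, were found among 11076 genes. Likeness was the root mean square difference of log2 CPM after each gene was centred on its own mean. For Per1 the nearest were Tsc22d3 at 0.17, Gldc at 0.25, Ttpa at 0.26, Fkbp5 at 0.29 and Cry1 at 0.29. For Cry1 they were Tsc22d3 at 0.22, Klf2 at 0.22, Osmr at 0.23, Shank3 at 0.24 and Gabra3 at 0.24. Tsc22d3, the nearest to both, had 178, 194, 164 and 239 CPM with BRD4780, against 64.3, 78.8, 119 and 97.1 CPM with vehicle. As in Per1, replicate 3 was the lowest BRD4780 library and the highest vehicle library. These are descriptions of 8 points per gene, which share library and treatment.

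The libraries held from 5.74 to 28.2 M counts with BRD4780 and from 16.6 to 28.5 M with vehicle. Proximal tubule markers, as fits kidney, summed to 10966 to 17438 CPM with BRD4780 and 13883 to 14717 CPM with vehicle, and edgeR called 0 of 9, DESeq2 0 and limma-voom 3 lower, with 1 unadjusted p under 0.05. Among the other cell types, the summed levels of podocyte and of endothelial markers were apart between the groups. The sums of all other marker lists overlapped. For scale, of all tested genes edgeR called 2.3% higher and 0.623% lower, DESeq2 6.42% and 3.69%, and limma-voom 12.3% and 11.1%. The groups did not overlap for 12.6% of all tested genes. Of 7 podocyte markers edgeR called 3 higher, DESeq2 6 and limma-voom 7, and none of the 7 overlapped between the groups. Podocyte sums were 203 to 305 CPM in BRD4780 kidneys and 61.0 to 142 CPM in vehicle kidneys. Of 8 endothelial markers edgeR called 3 higher, DESeq2 7 and limma-voom 6, with sums of 293 to 364 CPM with BRD4780 and 140 to 264 CPM with vehicle. Of 6 markers of the thick ascending limb edgeR called 3 lower, DESeq2 5 and limma-voom 4, with sums of 1881 to 3107 CPM with BRD4780 and 2890 to 3913 CPM with vehicle. Of 4 markers of the distal convoluted tubule edgeR called 1 higher, DESeq2 2 and limma-voom 2. A positive log2 fold change was found for 3 of them and a negative one for Pvalb (-0.19 ± 0.12). Their sums were 720 to 1083 CPM with BRD4780 and 555 to 819 CPM with vehicle. In the lists for collecting duct principal cells, intercalated cells, fibroblasts and mural cells, macrophages, lymphocytes, erythrocytes, adipocytes and adrenal cortex edgeR called 0 of 32 tested markers. Of these 14 had an unadjusted p under 0.05, as had 24.6% of all tested genes. DESeq2 called 2 of the 32 higher and 4 lower, and limma-voom 3 higher and 6 lower. All 3 erythrocyte markers tested had a negative log2 fold change (median -1.39), and limma-voom called all 3 lower. All 5 adipocyte markers tested were negative as well (median -1.82), while the 2 adrenal cortex markers tested were positive (median 0.77). The defining adrenal genes Cyp11b1 and Cyp11b2 were at 0 in all libraries. In bulk tissue fewer cells of a type and less RNA per cell cannot be told apart, and the part of these shifts in the clock gene values was not tested.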

How the data were processed

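RNA of a sagittal kidney section from each of 8 mice was captured on oligo-dT beads with a stranded TruSeq protocol, per the labels' protocols. The values are expected counts per gene deposited by the authors, not normalized. In each library 15.1% to 28.9% of values had decimals, and they were rounded. RSEM 1.3.0, STAR 2.5.2b and Picard are listed, with the builds hg19 and mm10, per the submitters' processing notes, without saying which served what. Strand setting and annotation are not stated.

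Of 22121 entries, 343 symbols on several lines were collapsed to leave 21759 genes. One column of per-sample values matched no sample analysed and was not used (number of such columns: 1). Replicate numbers follow the order of deposition. The design text gives 4 mice per arm.

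Genes were kept with filterByExpr (minimum count 10), scaled by TMM and compared, BRD4780 over vehicle, by the quasi-likelihood F-test of edgeR 4.0.16 in R 4.3.3 with no covariate, adjusted over all 13474 genes by Benjamini-Hochberg (threshold 0.05). SE is the absolute log2 fold change over the square root of F. CPM use TMM-scaled totals, and TMM factors ran from 0.959 to 1.06. Alternatives were RLE factors, library totals alone, DESeq2 1.42.0, limma-voom (limma 3.58.1) with quality weights, no filter, thinning to equal totals, leaving out each library and, added after seeing the data, a block on the title number. The test was tried on simulated data.

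The members and lists were chosen with earlier results of these data known. Named genes are all members, genes overlapping them on the opposite strand, from each clock list those called and the 2 with the smallest p, and for the 2 most variable members the 5 genes with the nearest pattern (mean log2 CPM of at least 1, established symbol). Exon lengths, overlaps and gene positions are from GENCODE M21 on GRCm38, and promoter windows from RefSeq on GRCm38.p6. Listed genes not found by symbol (Ciart, Chrono, Kmt2a, Ccrn4l, Noct, Adgre1, Hbb-bs, Hbb-bt) were not analysed here. The values of another gene that the naming rule picks are left out.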

Additional observations from a re-analysis of the deposited data

Results flagged for a closer look

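Of 64 groups of 4 values examined for a value far from the rest, 4 held one by Dixon's test, and chance alone flags about 1 in 20 groups. Cry1 in vehicle replicate 3 was at 7.37 CPM, where the other vehicle libraries had 3.28 to 3.75 CPM. Cry2 in vehicle replicate 4 was at 40.7 CPM, where the other vehicle libraries had 32.8 to 34.0 CPM. The log2 ratio of Nr1d1 to Arntl in vehicle replicate 3 was 3.52, where the other vehicle libraries had 4.44 to 4.53. The log2 ratio of Dbp to Arntl in BRD4780 replicate 1 was 4.11, where the other BRD4780 libraries had 4.51 to 4.58.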

How the results depend on the processing

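The main fit was not paired, because replicate numbers only follow the order of deposition. The titles carry numbers, 2 of which occur in both arms, and the labels do not say what they mark. A block on these numbers, chosen after seeing the data, left 4 residual degrees of freedom and gave 40 genes higher and 10 lower, with 0 members called in either direction, at log2 fold changes of 1.29 in Per1 and -0.68 in Nr1d1. Per1 stayed called and higher, and Nr1d1 called and lower, under RLE factors, library totals alone, DESeq2, limma-voom, no filter and thinned counts, with log2 fold changes of 1.27 to 1.54 and -0.70 to -0.62. Clock alone changed direction, with a log2 fold change of 0.0163 under library totals alone, a scaling that moved the median of all genes to 0.08. Other members passed the threshold under other tests. With DESeq2 these were Per2 (0.56), Cry1 (0.98) and Cry2 (0.37). With limma-voom they were Per2 (0.62), Cry1 (1.20), Cry2 (0.46), Nr1d2 (0.32) and Npas2 (-0.76). The members called numbered 4 higher with DESeq2 and 5 higher and 2 lower with limma-voom. Over all genes DESeq2 called 865 higher and 497 lower and limma-voom 1654 and 1501, against 310 and 84 in edgeR's test. The cause was not tested.

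Leaving out each library in turn gave 26 to 1647 genes called higher and 5 to 1537 lower, with the largest counts without BRD4780 replicate 3, and 0 to 4 members higher and 0 to 2 lower. Over these 8 fits the log2 fold change ran from 1.09 to 1.51 in Per1, 0.87 to 1.32 in Cry1, 0.32 to 0.46 in Cry2, -0.80 to -0.58 in Nr1d1, 0.16 to 0.31 in Nr1d2 and -0.81 to -0.43 in Npas2. The share of calls that were higher was 78.7% in edgeR's test, 84.1% under library totals alone, 63.5% with DESeq2, 52.4% with limma-voom and 51.7% without BRD4780 replicate 3. Depth limits Arntl and Npas2 most, since they had 22 and 20 counts in BRD4780 replicate 4.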
